A study of Rattus norvegicus with 32 samples.

Results

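The glutathione S-transferases (Gst), UDP-glucuronosyltransferases (Ugt), sulfotransferases (Sult) and carboxylesterases (Ces) are the 4 enzyme families described here. Members were the protein-coding genes with Ensembl IDs whose symbol belongs to 1 of these families and whose mean reached 1 FPKM or more in at least 1 of the 3 groups of livers. FPKM values are read counts scaled to the length of the gene and the size of the library, so levels can be set side by side between genes. Of the 32883 Ensembl genes in the deposited table, 51 carried such a symbol and 37 were members: 17 Gst, 5 Ugt, 8 Sult and 7 Ces genes.

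Hepatocytes make lipid-soluble drugs, hormones and waste products soluble by joining them to glutathione, glucuronic acid or sulfate, and the first 3 families catalyse these steps. Each needs a co-substrate made in the same cell: glutathione itself, UDP-glucuronic acid, or PAPS, the activated form of sulfate. Carboxylesterases split ester bonds, both in drugs and, for some of them, in the triglycerides that hepatocytes store and export.

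The livers were those of male rats of the inbred Lewis strain, in a study of transplanted livers with macrosteatosis, in which hepatocytes hold fat in large droplets. The labels name 12 samples as pre-transplant, 12 as post-transplant and 8 as those of long-term survivors. They give no further genotype, treatment, age, fat content or time of sampling, and no number of animals. Headers place 30 libraries of polyadenylated RNA in a group, and these entered the comparisons: 11 from pre-transplant livers, 11 from post-transplant livers and 8 from long-term survivors. Whether libraries of a group stem from different animals is not stated in the labels, so the p-values cover spread among libraries that may be technical. The RNA is that of whole liver: fewer cells of a type and less RNA per cell cannot be told apart.

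Reads in genes numbered 15372950 to 19311664 per library before transplantation, 15802817 to 18464388 after it and 17401155 to 18482059 in long-term survivors. Pre-transplant replicate u2, 1 of 2 libraries under the same header, stood apart: 21 of the 35 members that passed the filter on low values (1 FPKM reached in 8 or more libraries) were lower there than in every other pre-transplant library, against 0 to 5 for the others. It also had the lowest summed hepatocyte markers of the group (44198 FPKM, group median 77672 FPKM). Pre-transplant replicate 2 came next at 48361.5 FPKM, with 2 members below every other pre-transplant library. The deposited values hold a scaling between libraries, and these counts and sums were not rescaled. The size behind the FPKM, as a factor of the summed reads, was 1.22 in u2, the highest of the group. A larger factor lowers all values of a library. Post-transplant replicate 9 lay closest to the pre-transplant livers. Among long-term survivors, replicate 3 was nearly alike to 7, and 4 to 8: their reads differed by a chi-square per degree of freedom of 3.21 and 3.48, against 25.5 to 394 for the other 136 pairs of libraries within groups. These differences exceed counting noise, but that does not show that the paired libraries are of separate animals. All 8 were kept in the tests, so n = 8 and its SDs may treat dependent libraries as independent. Results with each pair averaged to 1 library (n = 6) are given where calls moved.

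For orientation, the start regions of 4 members are printed, each from 250 bases before to 50 bases after the gene's start in RefSeq (build GRCr8). They are Ces1d (chr19:30046244-30046543, plus strand) and Sult1e1 (chr14:20701230-20701529, plus strand), which had the greatest falls after transplantation, Ugt2a3 (chr14:20851720-20852019, plus strand), whose long-term survivor values all lay above the post-transplant ones, and Gstp1 (chr1:210769656-210769955, minus strand), which was not called in any comparison. Capitals mark matches, on either strand, to TTGCNNAA (a C/EBP motif), GTTAAT (an HNF1 motif), GCGTG (the core of the xenobiotic response element) and TGACNNNGC (the core of the antioxidant response element).
Ces1d: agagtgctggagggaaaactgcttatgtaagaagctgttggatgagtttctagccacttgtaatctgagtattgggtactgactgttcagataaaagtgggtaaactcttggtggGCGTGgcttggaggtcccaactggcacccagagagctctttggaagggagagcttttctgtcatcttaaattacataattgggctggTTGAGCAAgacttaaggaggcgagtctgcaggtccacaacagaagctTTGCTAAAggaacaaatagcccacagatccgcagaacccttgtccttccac
Sult1e1: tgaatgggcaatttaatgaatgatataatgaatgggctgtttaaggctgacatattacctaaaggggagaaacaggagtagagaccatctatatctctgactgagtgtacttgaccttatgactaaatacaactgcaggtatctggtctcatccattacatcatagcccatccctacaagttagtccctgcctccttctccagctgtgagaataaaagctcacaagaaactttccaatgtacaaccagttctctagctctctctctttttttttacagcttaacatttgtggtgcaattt
Ugt2a3: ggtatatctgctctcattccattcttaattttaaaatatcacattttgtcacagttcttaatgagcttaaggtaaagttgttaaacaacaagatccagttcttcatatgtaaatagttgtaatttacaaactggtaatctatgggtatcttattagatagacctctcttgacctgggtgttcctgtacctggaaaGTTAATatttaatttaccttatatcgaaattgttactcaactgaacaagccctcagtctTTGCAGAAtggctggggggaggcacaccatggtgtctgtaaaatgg
Gstp1: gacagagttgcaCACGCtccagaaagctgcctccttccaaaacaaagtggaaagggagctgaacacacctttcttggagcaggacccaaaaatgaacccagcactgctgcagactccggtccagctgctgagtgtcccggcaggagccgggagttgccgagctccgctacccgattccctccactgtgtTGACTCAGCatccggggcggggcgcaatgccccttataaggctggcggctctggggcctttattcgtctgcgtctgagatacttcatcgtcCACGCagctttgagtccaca

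The Ces1d window held 2 matches to the C/EBP motif and 1 to the xenobiotic core, and the Ugt2a3 window held 1 C/EBP and 1 HNF1 match. In the Sult1e1 window none of these 4 motifs was present in these letters. The window of Gsta5, the Gst gene with the greatest fall, held none either and is not printed. Gstp1 had 1 match to the antioxidant core and 2 to the xenobiotic core. Of the 37 members, 30 had a single window, 6 had none in the table and 1 had more than 1. The C/EBP motif was present in 9 of these 30 windows (30%), against 10.6% of the 33469 windows of all genes. Of the 23 windows of members called lower after transplantation, 6 held it. It was also in the windows of Ces2e and Sult2a6, which were not called, and of Sult1c2a, which was not tested. The other 3 motifs were about as frequent as in all windows: the antioxidant core in 4 of 30 (13.3% against 12.1%), the xenobiotic core in 8 (26.7% against 29.7%) and the HNF1 motif in 2 (6.67% against 7.45%). These shares are descriptions of the letters. Symbols of alpha and mu class Gst genes changed between annotations, and windows were matched by symbol and chromosome.

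Before transplantation, the most abundant member was Sult1e1 (estrogen sulfotransferase) at 949 ± 380.0 FPKM (mean ± SD, n = 11, as for all pre-transplant values below). Gstm1, a mu class transferase, followed at 877 ± 249 FPKM and Ugt2b, a family 2 glucuronosyltransferase, at 622 ± 95.8 FPKM. Gsta5, of the alpha class, stood at 481 ± 162 FPKM and Sult1a1, the phenol sulfotransferase, at 439 ± 150.2 FPKM. The ranges of mean ± SD overlap between each gene and the next in this order. Within each of the 11 libraries, though, Gstm1 lay above Ugt2b and Ugt2b above Gsta5. The order of the other neighbours differed between libraries. The Ces family was lower, led by Ces1d at 118 ± 50.5 FPKM and Ces2a at 58.8 ± 18.6 FPKM. Summed over members, the Gst family held 2684 ± 647 FPKM, the Sult family 1981 ± 473, the Ugt family 1114 ± 140 and the Ces family 231 ± 62.9 FPKM. A few genes carried each family: Sult1e1 made up 46.9% of the Sult sum, Ugt2b 55.7% of the Ugt sum, Ces1d 49.1% of the Ces sum and Gstm1 32.6% of the Gst sum.

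The first comparison asked how these enzymes differed between livers after and before transplantation. RNA of 28 of the 35 tested members fell and that of 0 rose, at an adjusted p under 0.05 from limma on log2(FPKM + 1). Sult2b1 and Gstm6 had means under 1 FPKM after transplantation and are members through other groups, so the rule favours their falls. Of the 33 tested members at 1 FPKM or more in every group mean, 26 fell. At an unadjusted p under 0.05 limma gave 30 lower and 0 higher, and voom on the recovered reads called 29 lower and 0 higher. Over all 11924 genes tested, 26.6% were called lower and 23.4% higher. The median change of the members was -0.85 on the log2 scale, against -0.03 for all genes, and 33 of 35 changes were negative. Falls were called in 13 of 17 Gst, 5 of 5 Ugt, 5 of 6 tested Sult and 5 of 7 Ces genes. The summed Gst level was 1204 ± 545 FPKM after transplantation (n = 11), the Ugt sum 611 ± 233, the Sult sum 793 ± 309 and the Ces sum 75.9 ± 39.2 FPKM. All changes below are log2 fold changes ± SE on the log2(FPKM + 1) scale, on which changes of low-level genes come out too small, and adjusted p-values are limma's over all genes tested. Gene positions are those of the deposited table, and Rnor_6.0 is the rat build among those in the submitters' processing notes.

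**Figure D1:**
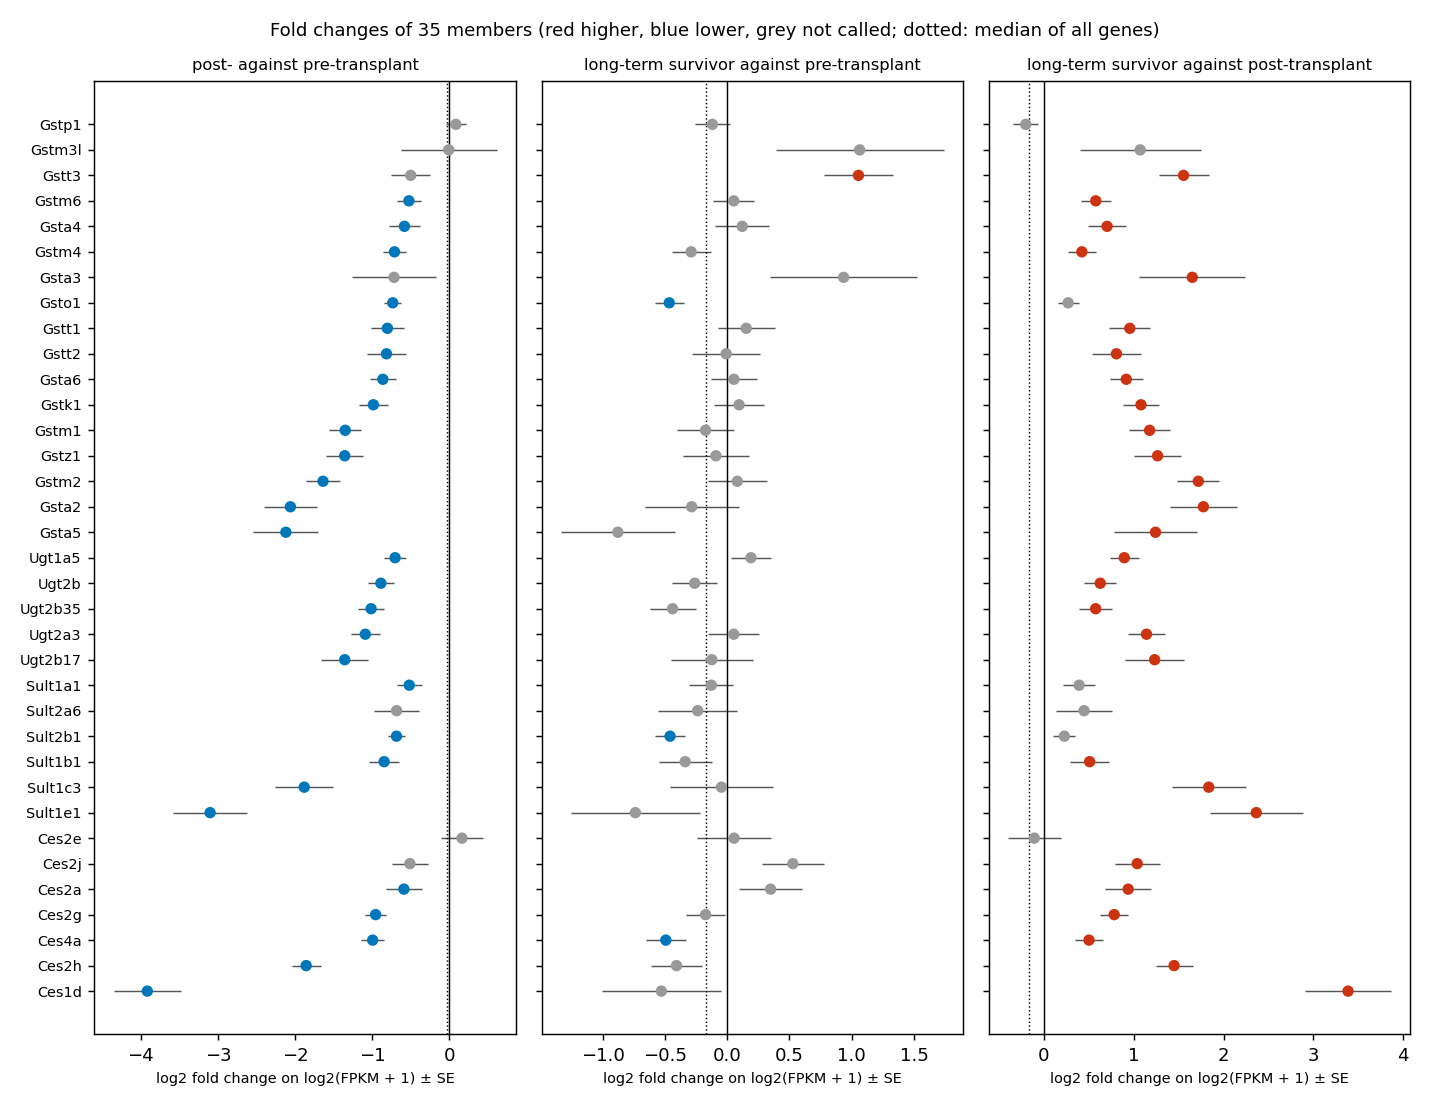
Log2 fold changes on log2(FPKM + 1) ± SE (x axes) of the 35 tested members (rows, by family) in the 3 comparisons; red and blue points passed an adjusted p of 0.05 as higher or lower, grey points did not, and the dotted line is the median of all genes. After transplantation the points lie to the left of 0 apart from Gstp1 and Ces2e, 28 of them called. Long-term survivors lie on both sides of 0 against pre-transplant livers, from -0.88 to 1.06 with a median of -0.12. Against post-transplant livers they lie to the right of 0 for 33 of 35 members.

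Carboxylesterases held the greatest fall among the members. Ces1d (ENSRNOG00000015519, chromosome 19 from 15033108 to 15239821), a carboxylesterase known in rodents also as a triglyceride hydrolase, ranged over 25.5 to 203 FPKM (median 116) before and 0.987 to 43.9 FPKM (median 5.50) after transplantation. The row of Ces1d spans 206714 bases, so reads of other genes may be counted in it. Post-transplant values were low in 9 of 11 libraries, below the lowest pre-transplant library, u2. The groups overlapped through u2 and post-transplant replicates 4 and 9 (34.99 and 43.94 FPKM). The mean fell from 118 ± 50.5 to 11.2 ± 14.6 FPKM (-3.91 ± 0.44, adjusted p = 4.96e-08), and the share of Ces1d in the Ces sum went from 49.1% to 12.4%. Ces2h (ENSRNOG00000039079, chromosome 19 from 37052556 to 37067156), of the carboxylesterase 2 group, ranged over 16.3 to 40.3 FPKM (median 31.5) before and 4.59 to 18.01 FPKM (median 6.58) after. Here 10 of 11 post-transplant libraries lay below every pre-transplant one, and Ces2h fell (-1.86 ± 0.19, adjusted p = 1.25e-08).

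The other carboxylesterases had smaller changes. Ces4a fell from 5.38 ± 0.666 to 2.37 ± 1.17 FPKM (-0.99 ± 0.15, adjusted p = 2.83e-06) and Ces2g from 8.73 ± 1.80 to 4.15 ± 1.45 FPKM (-0.96 ± 0.14, adjusted p = 2.62e-06). Post-transplant values lay below the whole pre-transplant range in 10 of 11 libraries for Ces4a and 9 of 11 for Ces2g. Ces2a, the second most abundant of the family, went from 58.8 ± 18.6 to 42.4 ± 23.6 FPKM with groups that overlapped widely (-0.59 ± 0.23, adjusted p = 0.0372). That call had adjusted p-values of 0.00676 to 0.0844 over the alternatives. It was lost, among others, in the fit of the compared groups alone, and on leaving out post-transplant replicate 2, 3, 6, 10 or 11 or pre-transplant replicate 1, 2, 10, 11 or u1. Ces2j (-0.51 ± 0.23, adjusted p = 0.0648) and the low-level Ces2e (0.16 ± 0.27, adjusted p = 0.643) did not pass. With Ces1d low, Ces2a made up 56.2% of the Ces sum after transplantation, against 26.4% before.

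Among the sulfotransferases, Sult1e1 (ENSRNOG00000001957, chromosome 14 from 22072024 to 22089248), which sulfates and thereby inactivates estrogens, had the greatest fall. It ranged over 176 to 1507 FPKM (median 933) before and 10.4 to 610.5 FPKM (median 105.2) after transplantation. Values were low in 8 of 11 post-transplant libraries, below the lowest pre-transplant library, which here was replicate 2, and the highest post-transplant value was that of replicate 9. Mean Sult1e1 fell from 949 ± 380.0 to 164 ± 178 FPKM (-3.10 ± 0.48, adjusted p = 4.71e-06). Its share of the Sult sum went from 46.9% to 17.8%, and Sult1a1 led the family after transplantation with 40.5%.

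Sult1c3 (ENSRNOG00000011269, chromosome 9 from 4930818 to 4978892), a member of the 1C subfamily, ranged over 61.1 to 194 FPKM (median 165) before and 10.2 to 173 FPKM (median 25.3) after. Of the post-transplant libraries, 7 lay below all pre-transplant ones, while replicates 4, 5, 8 and 9 lay inside the pre-transplant range. Sult1c3 fell from 145 ± 47.7 to 53.9 ± 53.0 FPKM (-1.88 ± 0.38, adjusted p = 0.000142). Sult1b1, which acts on thyroid hormones, fell from 291 ± 54.5 to 174 ± 64.4 FPKM (-0.85 ± 0.20, adjusted p = 0.000665). Sult1a1 fell from 439 ± 150.2 to 299 ± 77.3 FPKM (-0.52 ± 0.16, adjusted p = 0.00874). Sult2b1, which sulfates cholesterol and was near 1 FPKM, fell too (-0.69 ± 0.11, adjusted p = 1.29e-05). Of these 3, Sult1b1 was below the pre-transplant range in 8 of 11 libraries, Sult2b1 in 9 and Sult1a1 in 3. Sult2a6, a hydroxysteroid sulfotransferase, just missed the threshold (-0.68 ± 0.29, adjusted p = 0.0501) and passed it in some alternatives. Its row spans 527902 bases, so reads of other genes may be counted in it.

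All 5 glucuronosyltransferases fell. Ugt2b17 (ENSRNOG00000001990, chromosome 14 from 22724070 to 22825444), a family 2 enzyme, ranged over 42.9 to 125 FPKM (median 77.2) before and 8.38 to 79.7 FPKM (median 35.7) after transplantation. The lowest value was that of post-transplant replicate 11 and the highest post-transplant one, of replicate 5, lay inside the pre-transplant range. Ugt2b17 fell from 80.8 ± 26.6 to 36.4 ± 22.7 FPKM (-1.36 ± 0.30, adjusted p = 0.000451). The most abundant, Ugt2b (ENSRNOG00000046540, chromosome 14 from 22375955 to 22534720), ranged over 415 to 759 FPKM (median 599) before and 191 to 624 FPKM (median 349) after, with 7 of 11 post-transplant libraries below every pre-transplant one.

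Ugt2b fell from 622 ± 95.8 to 354 ± 134 FPKM (-0.89 ± 0.16, adjusted p = 5.19e-05), and Ugt2b35 from 334 ± 42.3 to 177 ± 73.4 FPKM (-1.01 ± 0.17, adjusted p = 1.38e-05). Ugt2a3 fell from 18.4 ± 6.78 to 8.26 ± 3.46 FPKM (-1.09 ± 0.19, adjusted p = 2.03e-05). Ugt1a5 is the single member from the Ugt1a locus, whose enzymes share exons and include those that conjugate bilirubin and phenols. Its row spans 141666 bases, so reads of other Ugt1a forms may be counted in it. This row fell from 59.5 ± 17.6 to 35.5 ± 7.71 FPKM (-0.70 ± 0.15, adjusted p = 0.000225). The row of Ugt2a3 spans 426999 bases and overlaps those of Ugt2b and Ugt2b35 on the same strand, so how their reads were split is uncertain. The row of Ugt2b itself spans 158766 bases, so reads of other genes may be counted in it too. As counted, the Ugt2b row made up 55.7% of the Ugt sum before and 58.0% after transplantation.

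In the alpha class of Gst genes, which conjugates electrophiles and reduces lipid peroxides, Gsta5 and Gsta2 fell most. Gsta5 (ENSRNOG00000000201, chromosome 8 from 85553734 to 85565179) ranged over 104.7 to 669.5 FPKM (median 508) before and 19.1 to 419 FPKM (median 115) after transplantation. Of the post-transplant libraries, 5 lay below the lowest pre-transplant one, u2, at 104.7 FPKM, while the other pre-transplant libraries were at 337 FPKM or more. Gsta5 fell from 481 ± 162 to 155 ± 134 FPKM (-2.12 ± 0.42, adjusted p = 0.000127). Gsta2 (ENSRNOG00000029861, chromosome 8 from 85640055 to 85645718) ranged over 11.5 to 61.2 FPKM (median 46.8) before and 1.53 to 26.8 FPKM (median 12.9) after, again with u2 as the lowest pre-transplant library, and fell (-2.06 ± 0.35, adjusted p = 1.49e-05). Gsta4, which conjugates the lipid peroxidation product 4-hydroxynonenal, fell (-0.58 ± 0.20, adjusted p = 0.0154), and so did Gsta6 (-0.86 ± 0.17, adjusted p = 0.00012). Gsta3 did not pass (-0.72 ± 0.54, adjusted p = 0.282): it ranged over 1.30 to 72.1 FPKM (median 9.48) before transplantation.

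Of the 5 mu class genes, 4 fell. Gstm2 (ENSRNOG00000018937, chromosome 2 from 210720704 to 210782856) ranged over 139 to 474 FPKM (median 376) before and 61.3 to 237 FPKM (median 88.7) after transplantation. Post-transplant libraries lay below the whole pre-transplant range in 7 of 11, and Gstm2 fell from 356 ± 97.3 to 119.9 ± 57.5 FPKM (-1.64 ± 0.22, adjusted p = 5.56e-07). Gstm1 (ENSRNOG00000029726, chromosome 2 from 210803869 to 210809306), the most abundant Gst gene in all 3 groups, ranged over 451 to 1423 FPKM (median 902) before and 186 to 845 FPKM (median 291) after. It was below the pre-transplant range in 8 of 11 libraries and fell (-1.35 ± 0.21, adjusted p = 5.51e-06). Gstm4 fell (-0.71 ± 0.14, adjusted p = 0.000164), and so did Gstm6, which was at about 1 FPKM (-0.52 ± 0.15, adjusted p = 0.00483). Gstm3l gave no call (-0.01 ± 0.62, adjusted p = 0.993), with values of 0.608 to 30.4 FPKM among post-transplant libraries alone. The row of Gstm2 overlaps those of Gstm3l and Gstm6 on the same strand, and these mu class copies are alike, so their separate values are uncertain.

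Gstz1 (ENSRNOG00000047708, chromosome 6 from 111176798 to 111187244), of the zeta class, acts as maleylacetoacetate isomerase in the breakdown of tyrosine. It ranged over 127 to 305 FPKM (median 260.5) before and 31.9 to 266 FPKM (median 86.7) after transplantation, where replicate 5 held the highest value, inside the pre-transplant range. Gstz1 fell from 240.2 ± 51.8 to 107.9 ± 69.5 FPKM (-1.36 ± 0.24, adjusted p = 3.44e-05). Gstk1, the kappa class enzyme of mitochondria and peroxisomes, fell from 156 ± 41.2 to 81.8 ± 33.2 FPKM (-0.98 ± 0.19, adjusted p = 7.17e-05). Gsto1, of the omega class, which reduces rather than conjugates, fell from 80.7 ± 10.3 to 49.0 ± 11.4 FPKM (-0.73 ± 0.11, adjusted p = 2.57e-06) and lay below the pre-transplant range in 10 of 11 libraries. Of the theta class, Gstt1 (-0.80 ± 0.21) and Gstt2 (-0.82 ± 0.25) fell, while Gstt3 gave -0.50 ± 0.26 and did not pass (adjusted p = 0.104), though it did with title run as a term.

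Gstp1, the pi class enzyme, is scarce in normal rat hepatocytes, present in bile duct cells, and known as a marker of preneoplastic foci in rat liver. It stood at 21.7 ± 3.83 FPKM before and 23.8 ± 8.29 FPKM after transplantation, with overlapping ranges of 17.9 to 30.4 and 15.9 to 40.0 FPKM. Its change was 0.08 ± 0.13, adjusted p = 0.61, with a 95% interval of -0.16 to 0.33 that does not reach the median change of the members. Post-transplant replicates 2 and 11 held its highest values, 40.03 and 39.95 FPKM. Bile duct cell markers were higher in 3 of 6 tested after transplantation, with Krt19 at 1.68 ± 0.742 FPKM before and 2.94 ± 1.71 FPKM after. Their part in the level of Gstp1 was not tested.

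**Figure D2:**
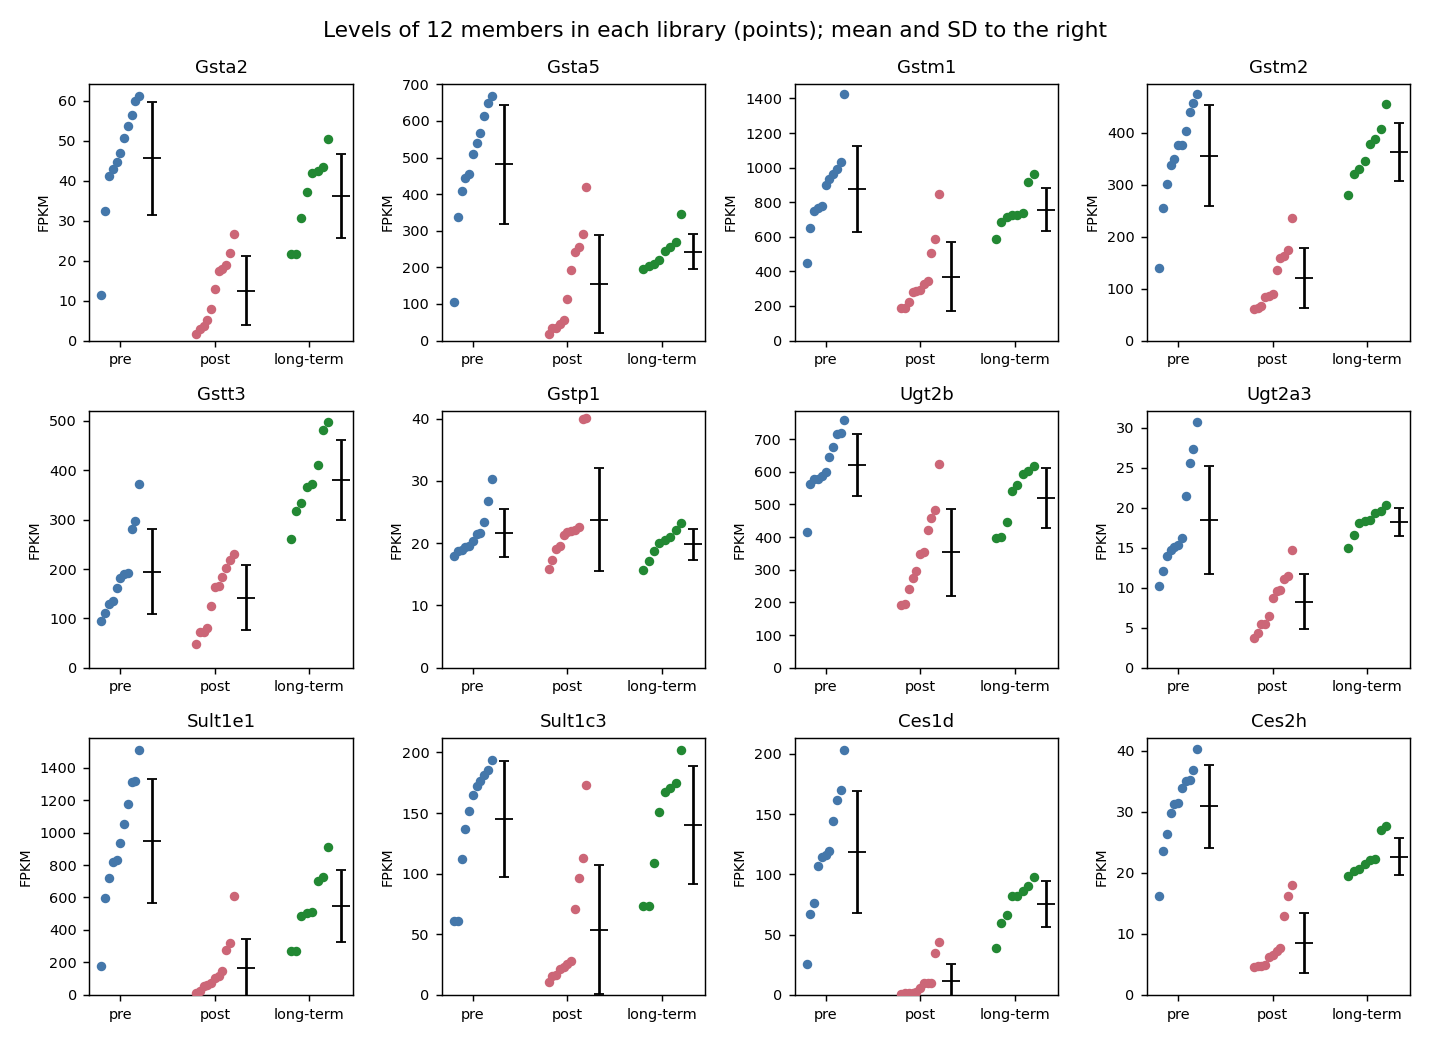
FPKM (y axes) of 12 members in each library, with 8 points for long-term survivors and 11 for each other group, sorted within a group, with the group's mean and SD to the right. Post-transplant points sit low for 10 of the 12, Gstp1 and Gstt3 having no call, as for Sult1e1 with a median of 105.2 against 933 FPKM, the single low pre-transplant point of Gsta5 (104.7 FPKM) is u2, and Gstt3 is highest in long-term survivors.

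Individual post-transplant libraries differed widely. The number of members below the whole pre-transplant range was 30 of 35 in replicate 3, 29 in replicate 10, 27 in replicate 11 and 25 in each of replicates 2 and 6. In the middle lay replicates 7 and 12 with 19 each and replicate 8 with 15. Few were below it in replicates 4, 5 and 9, with 10 in replicate 5, 9 in replicate 4 and 3 in replicate 9. Across members the median distance from the pre-transplant mean ran from -0.27 in replicate 9 to -1.70 in replicate 3. These counts and distances are of the deposited values, which hold a scaling between libraries, and were not rescaled. The size behind the FPKM, as a factor of the summed reads, was 0.783 in replicate 5 and 1.41 in replicate 11.

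Neutrophil markers differed across the same libraries: their sum was 25.8 FPKM in replicate 9, 72.0 in replicate 5 and 76.3 in replicate 4. It was 269.5 FPKM in replicate 3, 266 in replicate 10, 489 in replicate 11, 667 in replicate 6, 139.6 in replicate 2, 110.7 in replicate 12, 69.9 in replicate 7 and 48.5 in replicate 8. Before transplantation this sum was 2.08 to 8.59 FPKM. Hepatocyte markers summed to 52809.5 FPKM in replicate 9, 54198 in replicate 4 and 68629 in replicate 5, and to 17279 to 36711 FPKM in the other 8 post-transplant libraries. Their part in the fall of the members was not tested.

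**Figure D3:**
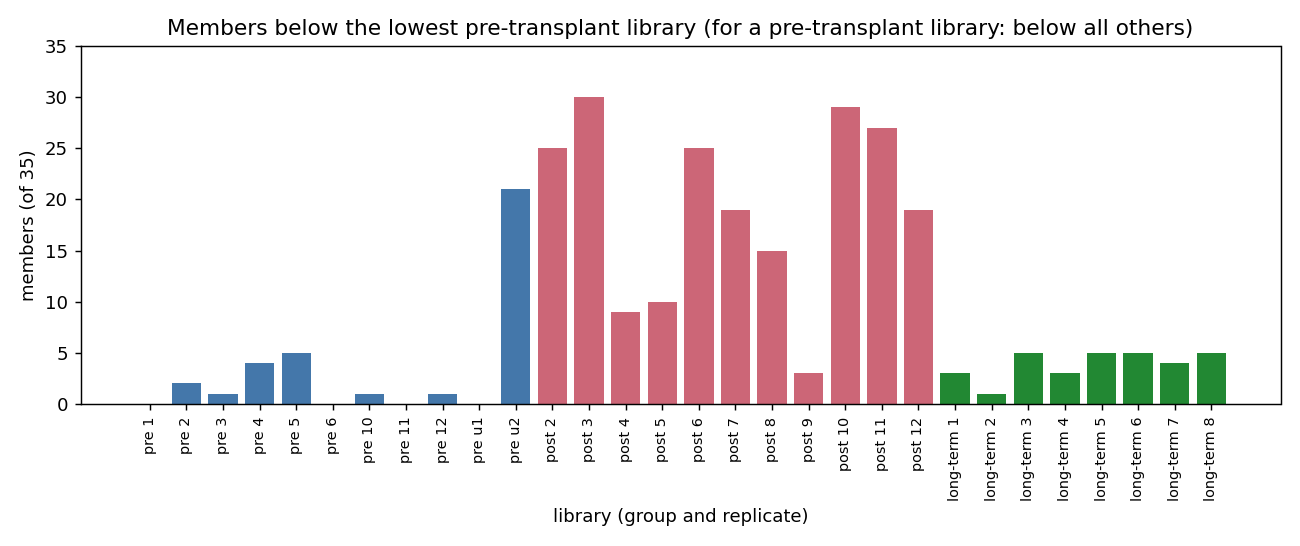
Number of the 35 tested members (y axis) that lay below every pre-transplant library, for each post-transplant and long-term survivor library, and below all other pre-transplant libraries for each pre-transplant one (x axis). Bars range from 3 to 30 in post-transplant, 1 to 5 in long-term survivor and 0 to 5 in pre-transplant libraries other than u2, which reached 21.

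For 0 of 35 members did every post-transplant library lie below every pre-transplant one, which held for 0.964% of all genes tested. Without u2 it held for 5 members (Ces1d, Ces2h, Ces4a, Gsta2 and Gstm2), against 2.41% of all genes. Without u2 and post-transplant replicate 9 it held for 11, against 3.59%. These 2 libraries were left out as an alternative chosen after seeing the data. The number of members called lower was then 31 of 35, with Ces2j, Gstt3 and Sult2a6 added.

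Sample titles of the pre- and post-transplant livers form 4 runs of consecutive numbers, each with libraries of both groups, and the labels do not say what a run is. The median member change within a run was -1.49 in M2 to M7, -1.18 in M21 to M26, -0.62 in M8 to M13 and -0.42 in M15 to M20. It was negative for 35, 31, 29 and 26 of the 35 members, in that order. Run M15 to M20 holds post-transplant replicate 9 and also u1 and u2, since every title these 2 columns can belong to lies in it. Ces1d was lower after transplantation in each run, with changes of -2.60 to -5.26, and so was Sult1e1, with changes of -1.59 to -4.87. Gsta5 gave -3.17, -3.62 and -1.88 in M2 to M7, M21 to M26 and M8 to M13, but 0.05 in M15 to M20. With title run as a term over libraries with a title of their own, 30 of 34 tested members were called lower, with Ces2j, Gstt3 and Sult2a6 gained and Gstm6 not tested. Placing both libraries under the shared header in M15 to M20 gave 26 of 34, with Ces2a not called and Gstm6 again not tested.

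**Figure D4:**
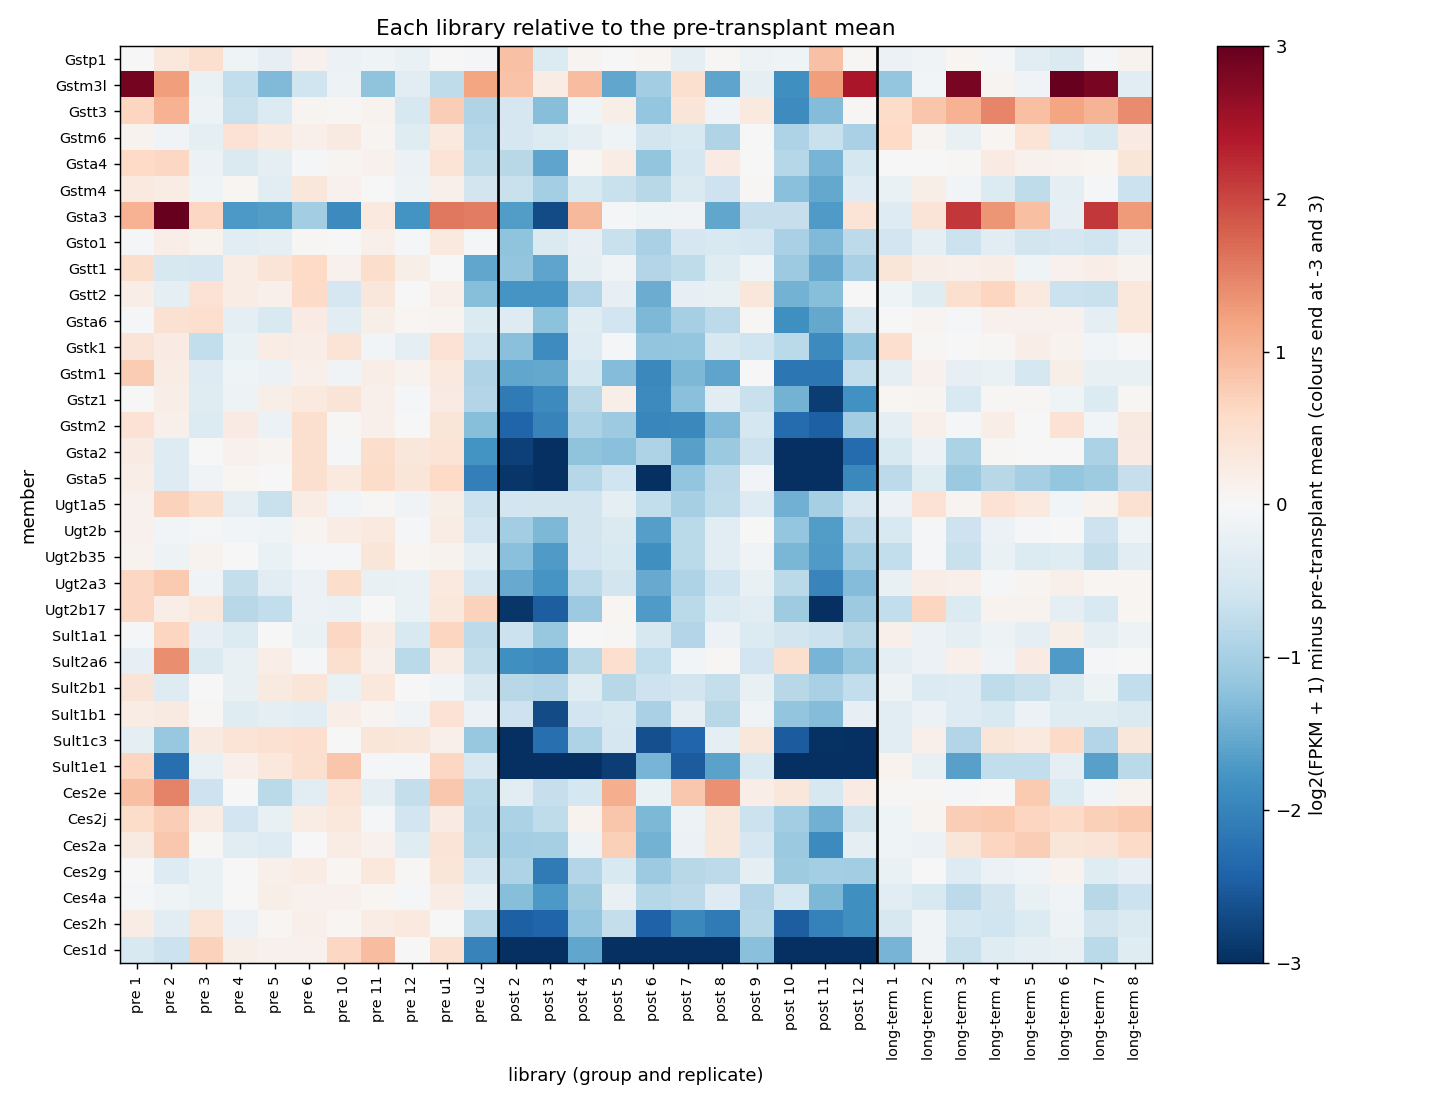
Each library (columns) relative to the pre-transplant mean (colour, difference of log2(FPKM + 1), ending at -3 and 3) for the 35 tested members (rows, by family); lines divide the 3 groups. Blue fills the columns of post-transplant replicates 2, 3, 6, 10 and 11 and part of that of pre-transplant u2, Ces1d and Sult1e1 are darkest, and the rows of Gsta3 and Gstm3l change sign within each group.

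The second comparison set long-term survivors beside the livers before transplantation. Here 1 of 35 members rose, Gstt3, and 3 fell, Gsto1, Sult2b1 and Ces4a. Sult2b1 is a member through its pre-transplant mean alone, which favours its fall. All genes gave 3.85% called higher and 30.8% called lower. The median change of the members was -0.12 against -0.17 for all genes. Rows without an Ensembl ID held a value in 845 of 1218 cases in each long-term survivor library and in all 1218 in the others, and the titles of long-term survivors form a number series of their own. How these libraries were made and their group cannot be told apart. Rescaling by median-of-ratios factors moved the median of all genes from -0.17 to 0.00. After it, 1023 of all genes were higher and 1065 lower in place of 459 and 3675, and of the members 2 were higher (Gstt3 and Ces2j) and 1 lower (Sult2b1). With the alike pairs averaged as well, 589 of all genes were higher and 621 lower, and of the members 1 was higher (Gstt3) and 0 lower.

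Gstt3 (ENSRNOG00000001242, chromosome 20 from 13817795 to 13825475), a theta class transferase, was the member that stood above its pre-transplant level. It ranged over 94.6 to 372 FPKM (median 182) before transplantation, 47.3 to 230.0 FPKM (median 163) after it and 262 to 498 FPKM (median 369.7) in long-term survivors. All 8 long-term survivor libraries lay above every post-transplant one and 4 of 8 above every pre-transplant one. Its mean was 380.2 ± 80.5 FPKM (n = 8) against 195 ± 86.9 before transplantation (1.05 ± 0.28, adjusted p = 0.00438; 1.27, adjusted p = 0.00228 after rescaling). Ces2j, at 10.8 ± 2.50 FPKM, gave 0.53 ± 0.25, adjusted p = 0.103 against pre-transplant livers and 0.72, adjusted p = 0.0429 after rescaling. This call of Ces2j was lost after rescaling with the alike pairs averaged. Ces2a gave 0.35 ± 0.26, adjusted p = 0.304.

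Of the 3 members called lower, Gsto1 stood at 58.1 ± 6.48 FPKM (-0.46 ± 0.12, adjusted p = 0.00315; -0.25, adjusted p = 0.136 after rescaling), with 5 of 8 libraries outside the pre-transplant range. Sult2b1 stood at 0.788 ± 0.301 FPKM (-0.46 ± 0.12, adjusted p = 0.00516; -0.35, adjusted p = 0.0451 after rescaling). Ces4a stood at 3.57 ± 0.837 FPKM (-0.49 ± 0.16, adjusted p = 0.0179; -0.32, adjusted p = 0.166 after rescaling), and its call was also lost with the alike pairs averaged. Without post-transplant replicate 9 and pre-transplant u2, 6 members were called lower, with Ces2h, Gsta5 and Ugt2b35 added.

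Several members with the greatest falls after transplantation had means in long-term survivors between the other groups, with no call against pre-transplant livers. Ces1d ranged over 39.2 to 97.7 FPKM (median 81.7), inside the pre-transplant range in all 8 libraries, and averaged 75.3 ± 19.2 FPKM (-0.53 ± 0.48, adjusted p = 0.41). The lower end of that range was u2 alone (25.5 FPKM). Long-term survivor replicates 1, 3 and 7 (39.2, 66.0 and 59.6 FPKM) lay below the next lowest pre-transplant library, at 66.8 FPKM. The 95% interval of Ces1d against pre-transplant livers, -1.46 to 0.41, lay for the most part below 0. Sult1e1 averaged 548 ± 224 FPKM, with an interval of -1.75 to 0.28, and Gsta5 243 ± 48.9 FPKM, with an interval of -1.78 to 0.02. Gsta5 lay inside the pre-transplant range through u2 (104.7 FPKM). All long-term survivor libraries but replicate 2 (344.7 FPKM) lay below the next lowest pre-transplant library, at 337.4 FPKM. For Sult1e1 the lowest values, 270.4 and 272 FPKM, were those of the alike replicates 7 and 3. Gstm2 averaged 363 ± 55.3 FPKM against 356 ± 97.3 before transplantation, Ugt2a3 18.2 ± 1.73 against 18.4 ± 6.78 and Gstk1 163 ± 22.97 against 156 ± 41.2 FPKM. Summed levels were 2498 ± 239 FPKM for Gst, 925 ± 156 for Ugt, 1429 ± 272 for Sult and 195 ± 31.5 for Ces genes (n = 8).

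The third comparison set long-term survivors beside post-transplant livers. It shares the post-transplant libraries with the first comparison and the long-term survivor libraries with the second. RNA of 28 of 35 members was higher in long-term survivors and that of 0 lower, and 27 of the 33 at 1 FPKM or more in every group mean were higher. At an unadjusted p under 0.05 the limma counts were 30 and 0, and voom on the recovered reads called 27 and 0. Among all genes 10.5% were called higher and 36.9% lower. The members' median difference was 0.94 against -0.16 for all genes. After rescaling, 31 were higher and 0 lower, while 2469 of all genes were higher and 2575 lower in place of 1255 and 4401. With the alike pairs averaged as well, 29 members were higher, Gsta3 and Sult2b1 having lost their calls. By family, 14 of 17 Gst, 5 of 5 Ugt, 3 of 6 Sult and 6 of 7 Ces genes were higher.

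For 5 of 35 members, Ces2h, Gstm2, Gstt3, Ugt1a5 and Ugt2a3, every long-term survivor library lay above every post-transplant one, which held for 0.335% of all genes. Ces1d differed most, at 75.3 ± 19.2 against 11.2 ± 14.6 FPKM (3.39 ± 0.48, adjusted p = 2.49e-06), and 7 of 8 long-term survivor libraries lay above the highest post-transplant one. Sult1e1 was higher (2.36 ± 0.52, adjusted p = 0.000506), as were Sult1c3 (1.84 ± 0.41, adjusted p = 0.000622) and Gsta2 (1.78 ± 0.38, adjusted p = 0.000353). Ugt2a3 ranged over 14.9 to 20.3 FPKM (median 18.4) in long-term survivors, above the highest post-transplant value of 14.8 FPKM (1.14 ± 0.20, adjusted p = 5.26e-05). Ugt1a5 ranged over 50.6 to 78.7 FPKM (median 66.1) against 20.4 to 47.4 FPKM (median 38.1) after transplantation (0.89 ± 0.16, adjusted p = 5.39e-05). Gstp1 and Ces2e had negative differences (-0.20 ± 0.14 and -0.11 ± 0.29) that did not pass. The pairs of alike libraries bear on this count: with them averaged 24 members were higher, without Gsta3, Gsta5, Gstm4 and Sult1b1. Leaving out 1 library ended the call of Gsta5 (post-transplant replicate 3, 6 or 11), of Gstm4 (long-term survivor replicate 2, 3 or 7 or post-transplant replicate 10 or 11) and, for most libraries, of Sult1b1 (adjusted p = 0.0495 with all).

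Members varied unequally among replicates. The coefficient of variation, the SD as a share of the mean, had a median over members of 31.2% before transplantation, 50.3% after it and 20.1% in long-term survivors, where it was 21.8% with the alike pairs averaged (n = 6). Gsta3 and Gstm3l varied most. Gsta3 went from 1.30 to 72.1 FPKM before transplantation, 0.346 to 16 after it and 5.56 to 36.5 in long-term survivors, with the highest value in pre-transplant replicate 2. Gstm3l reached 40.5 FPKM in pre-transplant replicate 1, 30.4 in post-transplant replicate 12 and 120.3 in long-term survivor replicate 6, with group medians of 3.49, 5.69 and 4.70 FPKM. Of the long-term survivor libraries, 4 for Gsta3 and 3 for Gstm3l lay above every post-transplant one. Gsta3 passed a test solely as higher in long-term survivors than after transplantation (1.65 ± 0.59, adjusted p = 0.0219).

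Sult1c2a and Sult5a1, members by their mean, did not pass the filter on low values and were not tested. Sult1c2a stood at 1.33 ± 1.05 FPKM before transplantation, was at 0 in 9 of 11 post-transplant libraries and stood at 0.551 ± 0.400 FPKM in long-term survivors. Sult5a1 stood at 0.120 ± 0.0619 FPKM before, 0.361 ± 0.366 after and 1.51 ± 1.42 in long-term survivors, where all 8 libraries lay above the pre-transplant range. Its alike replicates 3 and 7 held 4.01 and 3.38 FPKM, and without them the mean was 0.786 FPKM, under the limit for members. Each of these 2 genes is a member through 1 group only, so the rule itself favours a difference from that group, and no test is given. Just inside the limit of 1 FPKM were Gstm6 (1.11), Sult1c2a (1.33) and Sult2b1 (1.48), by their highest group mean, and just outside it Sult4a1 (0.460), Gsto2 (0.430) and Sult1c2 (0.426). Ces5a and Gstm3 were at 0 in all 30 libraries.

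Counts for the genes that supply the co-substrates stand beside the shares of all genes, 26.6% called lower and 23.4% higher after transplantation and, in long-term survivors against pre-transplant livers, 30.8% lower and 3.85% higher. Of 11 tested genes of glutathione supply, 6 fell and 1 rose after transplantation. Gclc and Gclm, the subunits of the enzyme that limits glutathione synthesis, fell from 70.2 ± 8.55 to 31.1 ± 12.0 FPKM (-1.23 ± 0.16, adjusted p = 6.7e-07) and from 129 ± 49.5 to 49.3 ± 22.2 FPKM (-1.39 ± 0.22, adjusted p = 8.22e-06). Both were also lower in long-term survivors than before transplantation, at 40.2 ± 12.99 and 58.6 ± 21.4 FPKM (-0.83 and -1.10; -0.62 and -0.89 after rescaling, both still called). Against pre-transplant livers, 4 of these 11 genes were lower in long-term survivors, near the share of all genes, and 2 after rescaling. With either scaling 1 was higher, the latter being Ggt1, which degrades glutathione outside cells, at 3.61 ± 3.19 against 0.255 ± 0.139 FPKM (1.59 ± 0.25, adjusted p = 3.05e-05).

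For UDP-glucuronic acid, 5 of 9 genes fell after transplantation and 1 rose. Ugdh, which makes UDP-glucuronic acid, fell from 95.8 ± 17.1 to 52.7 ± 14.0 FPKM (-0.88 ± 0.15, adjusted p = 1.97e-05), and so did Ugp2, which makes its precursor UDP-glucose (-0.96 ± 0.21, adjusted p = 0.000369). In long-term survivors Ugdh stood at 45.3 ± 12.2 FPKM (-1.09 ± 0.16, adjusted p = 1.75e-05 against pre-transplant livers) and Ugp2 at 76.3 ± 28.4 FPKM (-0.84 ± 0.23, adjusted p = 0.00554), the 2 of 9 called lower there with 0 higher. After rescaling Ugp2 was not called (-0.62, adjusted p = 0.0554), which left 1 lower, and 1 was higher. The gene that rose after transplantation was the hexokinase Hk2, from 0.441 ± 0.165 to 2.43 ± 1.99 FPKM (1.11 ± 0.17, adjusted p = 4.55e-06).

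For sulfate and PAPS, 3 of 9 tested genes fell after transplantation, near the share of all genes, and 1 rose. The sulfate transporters Slc13a4 (-3.23 ± 0.34, adjusted p = 1.89e-08) and Slc26a1 (-1.36 ± 0.19, adjusted p = 1.7e-06) fell, and Papss1, a PAPS synthase, rose (0.72 ± 0.16, adjusted p = 0.000326). Slc13a4 went from 43.9 ± 20.6 to 4.19 ± 3.59 FPKM and stood at 10.7 ± 3.36 FPKM in long-term survivors (-1.80 ± 0.37, adjusted p = 0.000484 against pre-transplant livers), where 2 of the 9 were lower (1 after rescaling) and 1 higher. Against post-transplant livers, the higher and lower counts in long-term survivors were 3 and 2 for glutathione supply, 1 and 1 for UDP-glucuronic acid and 4 and 0 for PAPS. After rescaling they were 6 and 1, 2 and 1, and 4 and 0. Before rescaling, 10.5% of all genes tested were called higher and 36.9% lower in this comparison.

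Related enzymes fell as well, beside 26.6% of all genes called lower and 23.4% higher after transplantation. Of 6 tested microsomal transferases and their MAPEG relatives, Mgst1, Mgst2 and Mgst3 fell (-0.85, -0.92 and -1.66), and Alox5ap, which serves leukotriene synthesis in leukocytes, rose (1.52 ± 0.22, adjusted p = 2.85e-06). Other conjugating enzymes fell in 9 of 11 and rose in 0, among them Baat, which joins bile acids to taurine and glycine (-1.16), and As3mt, an arsenic methyltransferase (-1.18). Other hydrolases fell in 11 of 14 and rose in 1, among them hepatic lipase Lipc (-1.75), the paraoxonases Pon1 (-1.75) and Pon3 (-1.16) and the epoxide hydrolase Ephx2 (-1.62). In long-term survivors against pre-transplant livers these 3 lists had 0, 0 and 0 genes higher and 0, 1 and 3 lower, or 0, 1 and 0 lower after rescaling. All genes gave 3.85% higher and 30.8% lower in that comparison. Against post-transplant livers the 3 lists had 3, 7 and 8 higher and 2, 0 and 1 lower, beside 10.5% of all genes higher and 36.9% lower. After rescaling they had 3, 8 and 10 higher and 1, 0 and 1 lower.

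Of 22 nuclear receptors and other regulators of these families, 10 fell and 1 rose after transplantation, or 8 and 1 after rescaling. All genes gave 26.6% called lower and 23.4% higher. Nr1h4, the bile acid receptor FXR, fell from 36.4 ± 8.01 to 14.8 ± 6.13 FPKM (-1.30 ± 0.17, adjusted p = 5.76e-07) and Nr1i3, the xenobiotic receptor CAR, from 24.9 ± 11.9 to 10.2 ± 4.53 FPKM (-1.14 ± 0.25, adjusted p = 0.000322). Cebpa, a hepatocyte transcription factor that binds C/EBP motifs, fell (-0.97 ± 0.21, adjusted p = 0.000392), and so did the estrogen receptor Esr1 (-1.07 ± 0.19, adjusted p = 4.04e-05). Their part in the levels of the members was not tested. In long-term survivors 1 of the 22 was higher and 8 lower than before transplantation, near the 30.8% of all genes called lower, and after rescaling 1 was higher and 0 lower. Arnt, the partner of the aryl hydrocarbon receptor, was among the 8 (-0.46 ± 0.11, adjusted p = 0.00162; -0.26, adjusted p = 0.0907 after rescaling). Against post-transplant livers 2 were higher and 4 lower, beside 10.5% and 36.9% of all genes, or 7 and 2 after rescaling.

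Markers of the labelled tissue were high in all libraries, with Alb at 22978.5 FPKM or more as a group mean. Of the 8 hepatocyte markers 3 fell after transplantation (Ttr, Alb and Cps1) and 0 rose, with a median change of -0.30, and their sum ranged over 44198 to 95233 FPKM before and 17279 to 68629 after. In long-term survivors it was 45384 to 85039 FPKM. Macrophage markers rose in 7 of 8 (sum of 142 to 503 FPKM before, 475.5 to 1378 after), neutrophil markers in 6 of 6 (2.08 to 8.59 before, 25.8 to 667 after) and stellate cell and fibroblast markers in 4 of 6 (30.4 to 84.0 before, 84.4 to 520.4 after). Endothelial markers rose in 2 of 5 and fell in 1 (46.3 to 98.2 before, 57.8 to 113 after), and bile duct markers rose in 3 of 6 (6.55 to 35.5 before, 14.5 to 46.6 after). No list had a marker at 0 in all libraries. Pericentral hepatocyte genes fell in 4 of 10 and rose in 1, and periportal ones fell in 5 of 10 (4 after rescaling) and rose in 1. Of all genes tested, 26.6% were called lower and 23.4% higher. The part of these cells in the fall of the members was not tested.

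In long-term survivors the sums were 243 to 384 FPKM for macrophage, 5.54 to 46.1 for neutrophil, 38.4 to 58.6 for stellate cell and fibroblast, 30.8 to 62.4 for endothelial and 18.1 to 103.1 for bile duct markers. Of all genes tested, 3.85% were called higher and 30.8% lower against pre-transplant livers. In that comparison, bile duct markers were higher in 6 of 6, macrophage markers in 1 of 8 (2 after rescaling) and neutrophil markers in 2 of 6. In each of these lists 0 were lower. Stellate cell and fibroblast markers were higher in 2 of 6 and lower in 2 (2 and 0 after rescaling). Endothelial markers were lower in 3 of 5 with 0 higher. Hepatocyte markers had 0 of 8 called in either direction and pericentral genes 0 higher and 3 lower of 10. Periportal genes had 2 higher and 1 lower of 10 (3 and 0 after rescaling). Against post-transplant livers, long-term survivors had higher bile duct markers in 6 of 6 and hepatocyte markers in 3 of 8, and lower macrophage markers in 7 of 8, neutrophil markers in 6 of 6, stellate cell and fibroblast markers in 5 of 6 and endothelial markers in 4 of 5, with 0 the other way in each list. After rescaling, hepatocyte markers were higher in 4 of 8, stellate cell and fibroblast markers lower in 4 of 6 and endothelial markers in 3 of 5. Of all genes tested, 10.5% were called higher and 36.9% lower against post-transplant livers. The part of bile duct cells in the higher Gstt3 level was not tested.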

How the data were processed

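Polyadenylated RNA of rat livers was sequenced, per the labels' protocols. The authors deposited 1 table with 1 column of values per library. The values were read as FPKM as the authors deposited them, since FPKM times gene length gave whole reads for 100% of the Ensembl genes within 0.02 reads, up to 5000 reads. Per the submitters' processing notes, HISAT2 2.0.5, a read aligner, was used (builds named: mm10 and Rnor_6.0, with no role given). Coordinates of genes are those of the table. Not given in the sources used here: the counting program and annotation release. The sizes behind the FPKM differed from the summed reads by factors of 0.783 to 1.41, so the deposited values hold a scaling between libraries.

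Of 32 sample columns, 30 were used. A header on 2 columns that matches a post-transplant sample left 2 columns not used. Another on 2 columns matches a pre-transplant sample, and these columns were used as pre-transplant u1 and u2, since the titles with no header are pre-transplant too.

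Here, 11924 genes that reached 1 FPKM in 8 or more libraries were tested with limma 3.58.1 in R 4.3.3 (trend and robust empirical Bayes) on log2(FPKM + 1). All 3 groups shared 1 fit, and tests were two-sided with Benjamini-Hochberg adjustment over all these genes and a threshold of 0.05. The fit was tested on simulated data. Alternatives were a pseudocount of 0.1, no filter, only the groups compared, median-of-ratios scaling, voom on the recovered reads, no trend and no robust fit, title run as a term, averaged long-term survivor pairs, and leaving out libraries. Intervals are 95% by a normal approximation from limma's change and SE. They are slightly narrower than intervals from the t-distribution behind limma's p-values. Full values were given for up to 4 called members per family and direction with the greatest change and the 3 most abundant per family, and, of other lists, up to 4 genes with the smallest adjusted p per comparison. Singled members at the threshold and members with no call were named after their values were seen. The members, lists and tests were chosen with earlier results of these data known.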

Additional observations from a re-analysis of the deposited data

Results flagged for a closer look

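In 4 of 37 members a single long-term survivor library lay far from the other 7, by Dixon's test at its 95% critical value, where chance flags about 1 group in 20. Gstm3l was at 120.3 FPKM in replicate 6, and the next highest library was at 40.0 FPKM. In the same replicate Sult2a6 was at 42.6 FPKM, where the next lowest library was at 115.3 FPKM. Ces2e was at 3.11 FPKM in replicate 5, next to 1.57 FPKM, and Gstk1 at 214 FPKM in replicate 1, next to 174 FPKM. Without replicate 6 the members called in long-term survivors against pre-transplant livers were 1 higher and 3 lower, as with it.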

How the results depend on the processing

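Leaving out 1 library at a time gave 27 to 30 members lower after transplantation, 1 higher each time and 3 to 4 lower in long-term survivors against pre-transplant livers, and 25 to 30 higher against post-transplant livers. The counts of 0 remained 0 in all alternatives run. Voom on the recovered reads called 2776 of all genes higher and 3168 lower after transplantation. Against pre-transplant livers, members higher in long-term survivors numbered 2 with median-of-ratios scaling and with only the groups compared (Ces2j added in both) and 2 with no filter (Sult5a1 added, which is a member through long-term survivors alone). With median-of-ratios scaling and averaged pairs the number was 1. Members lower there numbered 1 with median-of-ratios scaling, 0 with that scaling and averaged pairs, 6 without post-transplant replicate 9 and pre-transplant u2, and 7 with only the groups compared. The first 2 of these settings shift all long-term survivor values, and the cause of the other moves was not tested. The 2 settings with left-out or paired libraries were chosen after seeing the data. Of 2999 values of named members under alternatives, 2899 kept their side of the threshold (22 with the other sign but called in neither), 59 lost a call, 41 gained one and 0 called values reversed. No paired analysis was possible because the titles carry no replicate number that groups share. Depth limits Gstm6, Sult2b1, Sult1c2a and Sult5a1, which rested on at most 135 reads in a library.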
